A study of Mus musculus with 2 samples.

Results

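The expression of 10 genes for enzymes that make bile acids from Chol was compared in the liver of apoE-KO mice between the 2 diets. The genes are Cyp7a1 and Cyp8b1 of the classic pathway, Cyp27a1, Cyp7b1 and Cyp39a1 of the alternative pathway, Hsd3b7 and Akr1d1, which modify the sterol ring, Acox2 and Amacr, which act on the side chain, and Baat, which conjugates the finished acid. They were found by their symbols among the probes of the arrays, where 13 of 41174 probes carried them, and these 10 genes stand among 27962 gene names in all. All 10 passed the filter on dim probes, as did 16727 genes of the whole array. The mice were male, of the C57BL/6 strain, lacked Apoe in both groups, and received normal chow or the same chow with 1.25% Chol (high-Chol diet) for 1 week from 10 weeks of age. Liver RNA from 3 independent experiments per diet was read on 6 one-colour arrays of 60-base probes. A mouse with intact Apoe was not compared here, so each difference holds for livers of this hypercholesterolemic model.

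Bile acids are the main route by which the liver disposes of Chol. In the classic pathway Cyp7a1, the rate-limiting cholesterol 7alpha-hydroxylase, acts first, and Cyp8b1, the sterol 12alpha-hydroxylase, sets how much cholic acid is made. In the alternative pathway the side chain is oxidized first, as by Cyp27a1, a mitochondrial sterol 27-hydroxylase. Cyp7b1 and Cyp39a1 add the 7alpha-hydroxyl group to oxysterols, which need not be products of Cyp27a1. Bile acids that return to the liver act on the receptor FXR (Nr1h4), which induces SHP (Nr0b2), and Cyp7a1 is known for its strong daily rhythm in rodents.

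The sequences of 2 probes are shown, the second probe for Cyp7a1, the gene with the widest spread on the high-Chol diet, and the probe for Acox2, the gene with the smallest adjusted p-value of the 10. Positions come from the annotation of the array design (mm7). Both probes match the minus strand, and both cover a stretch longer than the probe itself, 607 bases for Cyp7a1 and 4390 bases for Acox2, so by this annotation each crosses at least 1 intron. The Cyp7a1 probe lies at chr4:6195632-6196238 and the Acox2 probe at chr14:6034599-6038988.
Cyp7a1: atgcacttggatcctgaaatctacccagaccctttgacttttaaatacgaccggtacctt
Acox2: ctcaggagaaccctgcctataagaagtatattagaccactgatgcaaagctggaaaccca
In 5′ to 3′ direction each leaves 1 of the 3 reading frames without a stop codon. A brighter probe for Cyp7a1 at chr4:6193456-6193515 stood for the gene in the comparison, and the probe printed above served as its second reading.

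All values below are the log2 of the background-subtracted signal relative to the 75th percentile of the same array, so 1 unit is a 2-fold step, and levels are not compared between genes because each probe has its own brightness. The 3 normal chow arrays and high-Chol array 1 lay on slide 1, and high-Chol arrays 2 and 3 lay on slide 2. The 75th percentile was 271 to 373 intensity units on slide 1 and 762 to 799 on slide 2. Between 50.5 and 67.2% of the spots on an array were well above background. Because the slides divide the high-Chol diet, a second fit took slide as a block, so that high-Chol array 1 alone stands against the 3 normal chow arrays. In whole liver, fewer cells of a type and less RNA per cell cannot be told apart.

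The mean of 8 of the 10 genes was lower on the high-Chol diet and that of 2 was higher, but no difference passed the test after adjustment over all genes. The split was 5 and 5 after normexp background correction and 7 and 3 after quantile normalization, with median differences of 0.02 and -0.07. The median log2 difference was -0.20, against -0.02 over all 16727 genes, of which 52.2% were lower. By limma with Benjamini-Hochberg adjustment, 0 of the 10 genes were called, where 2.92% of all genes were called, 2.69% in the higher and 0.227% in the lower direction. With p under 0.05 before adjustment, Cyp8b1 and Cyp7b1 were lower and Acox2 was higher, where 8.83% of all genes were lower and 12.3% higher. The methods' t-test gave 2 of the 10 at an unadjusted p under 0.05 (Cyp7b1 and Acox2), against 16.7% of all genes, and 0 after adjustment, against 0.0299%. Differences over 1.5-fold were seen in 3 genes that were lower (Cyp7a1, Cyp8b1 and Cyp7b1) and in 2 that were higher (Hsd3b7 and Acox2), against 5.84% and 15.4% of all genes. Hsd3b7 had a value on 1 high-Chol array, and with its marked spots kept its difference of 0.30 was under 1.5-fold. The diets did not overlap for Cyp7b1, which was lower, and Acox2, which was higher, and among the 16435 genes with 6 values the same was true of 14% that were lower and 11.9% that were higher.

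**Figure D1:**
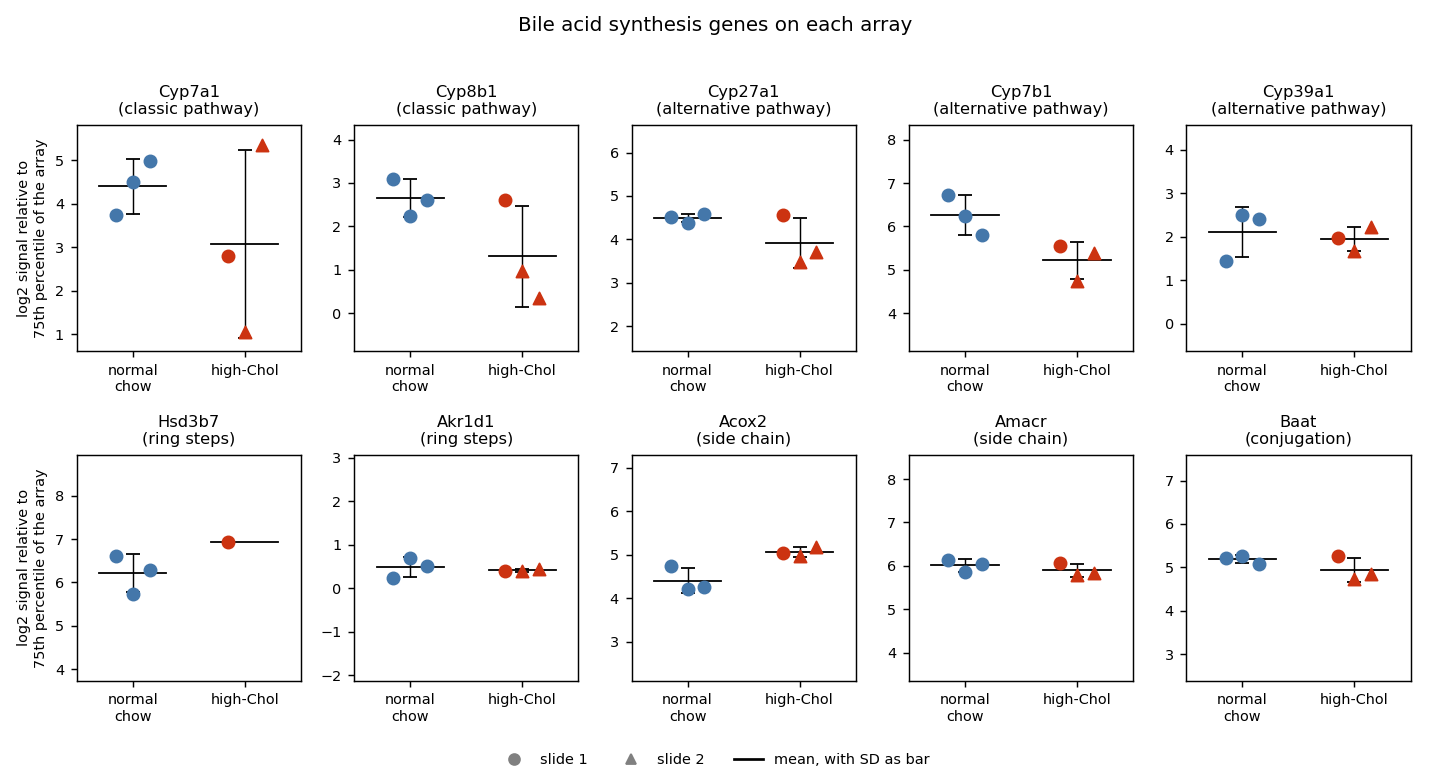
Log2 signal of each of the 10 genes relative to the 75th percentile of its array, for normal chow and the high-Chol diet; circles are arrays of slide 1, triangles arrays of slide 2, horizontal lines means and bars SDs, and every panel spans the same number of log2 units. Cyp7a1 spreads from 1.05 to 5.36 on the high-Chol diet, while the diets do not overlap for Cyp7b1 and Acox2; Hsd3b7 has 1 high-Chol value because the other two spots were marked as outliers.

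The signal of Cyp7a1 was 3.73, 4.49 and 4.99 on normal chow against 2.80, 1.05 and 5.36 on high-Chol arrays 1, 2 and 3. High-Chol arrays 1 and 2 were below all normal chow arrays and high-Chol array 3 was above all of them, so the diets overlapped. The difference was -1.33 (standard error 0.99, adjusted p = 0.442, n = 3 arrays per diet), with a 95% confidence interval from -3.67 to 1.00. The SD was 2.17 on the high-Chol diet and 0.63 on normal chow. The second probe read 1.21, 1.62 and 2.10 on normal chow against 0.70, -0.83 and 1.82 on the high-Chol diet, so that the means differed by -1.08 (standard error 0.62, adjusted p = 0.354). Both probes thus put high-Chol array 2 lowest, and on the second probe high-Chol array 3 lay within the range of normal chow. Single arrays moved the size of the difference, which was -0.32 without high-Chol array 2 and -2.48 without high-Chol array 3. Within slide 1 it was -1.60, and all alternatives gave a lower mean.

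Cyp8b1 gave 3.10, 2.24 and 2.61 on normal chow against 2.61, 0.98 and 0.36 on the high-Chol diet. High-Chol array 1 was inside the normal chow range and the arrays of slide 2 were below it. The difference was -1.34 (standard error 0.56, adjusted p = 0.231), with a 95% confidence interval from -2.65 to -0.03. With slide as a block it was -0.04 (adjusted p = 0.982), and without high-Chol array 1 it was -1.98 (adjusted p = 0.0099), a fit in which diet and slide cannot be told apart. The lowest array thus differed between the 2 enzymes of the classic pathway, array 2 for Cyp7a1 and array 3 for Cyp8b1. Over the 6 arrays Pearson's r between them was 0.05, given as a description of arrays that share slides.

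Cyp27a1 of the alternative pathway was close to constant on slide 1, at 4.51, 4.39 and 4.57 on normal chow and 4.56 on high-Chol array 1, and lower on slide 2, at 3.48 and 3.72. The difference over all arrays was -0.57 (standard error 0.28, adjusted p = 0.288) and turned to 0.07 with slide as a block (adjusted p = 0.935). Without high-Chol array 1, with diet and slide not to be told apart, it was -0.89 (adjusted p = 0.0141).

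Cyp7b1 was the member whose 3 high-Chol arrays were all below normal chow. Its signal was 6.72, 6.25 and 5.80 on normal chow against 5.54, 4.74 and 5.38 on the high-Chol diet, with no overlap. The difference was -1.04 (standard error 0.30, adjusted p = 0.135), a 95% confidence interval from -1.75 to -0.32, and an exact permutation test over the 6 arrays gave p = 0.1, two-sided, the smallest that 3 against 3 arrays allow. The mean was lower by 0.71 within slide 1 (adjusted p = 0.680 with slide as a block). It was lower by 1.20 without high-Chol array 1 (adjusted p = 0.0495), where diet and slide cannot be told apart. Leaving out any 1 array left the difference between -1.26 and -0.80.

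Cyp39a1, an oxysterol 7alpha-hydroxylase, overlapped between the diets. It read 1.44, 2.49 and 2.40 on normal chow against 1.97, 1.67 and 2.22 on the high-Chol diet. The difference was -0.16 (standard error 0.31, adjusted p = 0.782), with a 95% confidence interval from -0.89 to 0.57, and its second probe gave -0.23. Without normal chow array 2 the difference was 0.03.

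Cyp8b1 and Cyp27a1 shared the pattern of high-Chol array 1 inside the normal chow range and both slide 2 arrays below it, as did Amacr and Baat. This made 4 of the 9 members with 6 values, against 9.39% of the 16435 genes, 5 of 14 other bile acid genes and 3 of 13 regulators, a pattern chosen after the values were seen. RefSeq windows of the 250 bases before the gene start (GRCm38.p6) were matched for 5 of the 10 genes, Cyp8b1, Cyp27a1, Hsd3b7, Akr1d1 and Acox2. The windows of Cyp8b1 (chr9:121916306-121916555, minus strand) and Cyp27a1 (chr1:74713285-74713534, plus strand) are shown because both genes held this pattern.
Cyp8b1: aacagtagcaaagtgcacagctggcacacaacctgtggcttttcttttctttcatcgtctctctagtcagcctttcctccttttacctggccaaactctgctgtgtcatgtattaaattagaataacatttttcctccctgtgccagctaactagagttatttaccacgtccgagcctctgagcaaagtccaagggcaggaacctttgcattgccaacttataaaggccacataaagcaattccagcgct
Cyp27a1: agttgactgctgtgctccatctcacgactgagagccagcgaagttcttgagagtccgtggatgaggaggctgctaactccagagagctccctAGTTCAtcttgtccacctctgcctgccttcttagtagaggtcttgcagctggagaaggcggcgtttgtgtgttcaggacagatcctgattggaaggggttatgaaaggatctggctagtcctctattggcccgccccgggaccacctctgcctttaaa
Capitals mark matches to any of 5 motifs searched on both strands, TCAAGG and AGGTCA (half-sites of nuclear receptors), AGTTCA (a variant half-site), TTANGTAA (bound by Dbp, Tef and Hlf) and CACGTG (an E-box). Cyp27a1 held AGTTCA, 158 bases before its start, and Cyp8b1 held no match to the 5 motifs. Longer or inexact sites were not searched for. Of the 32851 windows in the table, 11.8% held AGTTCA, 12.5% TCAAGG, 14.0% AGGTCA, 2.06% TTANGTAA and 6.02% CACGTG. Among the other windows, Akr1d1 held AGGTCA at 2 positions and TCAAGG at 1, on the reverse strand and partly overlapping, while Hsd3b7 and both Acox2 windows held no match. A match is a description of the letters and not a bound site.

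Acox2, the peroxisomal oxidase that starts the shortening of the bile acid side chain, gave 4.74, 4.22 and 4.25 on normal chow against 5.04, 4.96 and 5.18 on the high-Chol diet. The 3 high-Chol arrays were above all normal chow arrays and close to one another, with an SD of 0.11. The difference was 0.66 (standard error 0.19, adjusted p = 0.131), with a 95% confidence interval from 0.21 to 1.11 and an exact permutation p = 0.1, two-sided, the smallest possible. It was 0.64 within slide 1 (adjusted p = 0.562 with slide as a block). Across all alternatives the mean was higher on the high-Chol diet by 0.42 to 1.00. Amacr, the racemase that turns the side chain into the form Acox2 can use, read 6.13, 5.85 and 6.04 on normal chow against 6.06, 5.78 and 5.84 on the high-Chol diet. Its difference was -0.11 (standard error 0.16, adjusted p = 0.686), and its interval from -0.49 to 0.26 stayed within 1.5-fold in either direction.

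For Hsd3b7, the 3beta-hydroxysteroid dehydrogenase that both pathways need, the spots on slide 2 were marked as outliers by the scanner software and left out. Its signal was 6.62, 5.74 and 6.28 on normal chow and 6.93 on high-Chol array 1, which was above all normal chow arrays. The difference of 0.72 (standard error 0.39, adjusted p = 0.343) thus rests on 1 high-Chol array, and with the marked spots kept, at 6.52 and 6.09, it was 0.30. Akr1d1, the 5beta-reductase that bends the ring, read 0.24, 0.69 and 0.51 on normal chow against 0.39, 0.38 and 0.45 on the high-Chol diet. The high-Chol arrays all lay within the normal chow range, and the difference was -0.07 (standard error 0.17, adjusted p = 0.810, 95% confidence interval -0.46 to 0.32).

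Baat joins bile acids to taurine or glycine. It gave 5.21, 5.26 and 5.08 on normal chow against 5.25, 4.73 and 4.85 on the high-Chol diet, where the slide 2 arrays alone were below normal chow. The difference was -0.24 (standard error 0.18, adjusted p = 0.448). The second probe for Baat read 2.93, 2.89 and 2.76 on normal chow against 3.07, 2.87 and 2.98 on the high-Chol diet, which overlapped and differed by 0.11, so the 2 probes disagree in direction.

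**Figure D2:**
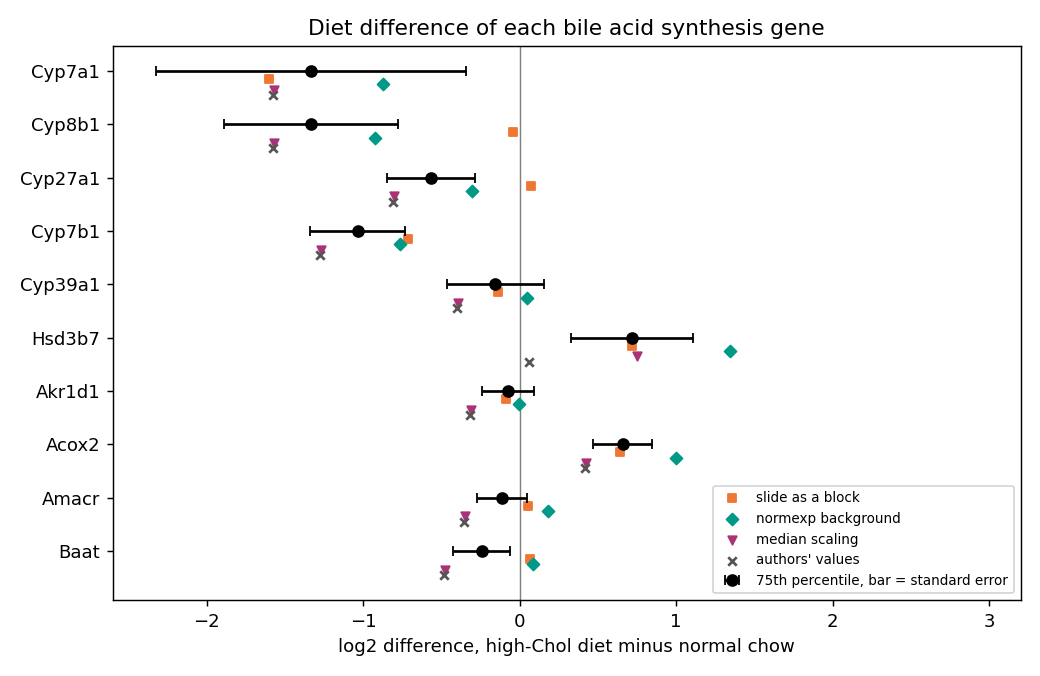
Log2 difference of each gene, high-Chol diet minus normal chow, with its standard error as a bar (black, scaled to the 75th percentile) and the same difference with slide as a block, after normexp background correction, after scaling to the median and in the authors' deposited values. Cyp8b1 moves from -1.34 to -0.04 with slide as a block, whereas Cyp7b1 stays between -1.28 and -0.71 and Acox2 between 0.42 and 1.00.

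The classic and alternative pathways were set against each other within each array, by subtracting the deviation of an alternative enzyme from its normal chow mean from that of a classic enzyme. For Cyp7a1 against Cyp7b1 this gave -1.13, 0.09 and 1.04 on normal chow against -0.89, -1.84 and 1.83 on the high-Chol diet, with means apart by -0.30. For Cyp8b1 against Cyp27a1 it gave 0.43, -0.31 and -0.13 on normal chow against -0.12, -0.67 and -1.53 on the high-Chol diet, with means apart by -0.77. The means were furthest apart against Cyp39a1, by -1.18 for both Cyp7a1 and Cyp8b1. For Cyp7a1 against Cyp39a1 the values were 0.00, -0.30 and 0.30 on normal chow against -1.46, -2.91 and 0.85 on the high-Chol diet. The diets overlapped in each of these comparisons. Exact permutation tests, two-sided, of all 6 pairs of a classic with an alternative enzyme gave p = 0.3 to 0.9, or 0.8 to 0.9 after Benjamini-Hochberg adjustment over the 6 pairs. This test cannot give a p below 0.1 with 3 against 3 arrays, so it does not show that the pathways moved alike. Both enzymes of the classic pathway and all 3 of the alternative pathway had a lower mean on the high-Chol diet under the 4 scalings, apart from Cyp39a1 after normexp background correction, where it was at 0.05. With slide as a block 5 of the 10 genes were lower and 5 higher, with a median of 0.00, and 0 were called, against 0.0658% of all genes. None of the 10 had an unadjusted p under 0.05 in that fit, against 9.11% of all genes.

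Among 15 other genes of bile acid and side chain metabolism, 1 was called higher and 0 were called lower, against 2.69% and 0.227% of all genes. The median difference was -0.21, or 0.04 after normexp background correction. The gene called was Ch25h, the cholesterol 25-hydroxylase, whose probe was not well above background on any normal chow array and was well above it on all 3 high-Chol arrays. Its signal was -5.84, -4.84 and -5.15 on normal chow against -2.40, -1.18 and -3.41 on the high-Chol diet, at least 4.62-fold higher (adjusted p = 0.0413), where the normal chow level is taken as the lowest signal well above background. Ch25h passed the filter on dim probes only through the high-Chol arrays, so a difference was built into its selection and its call says nothing of the list. With slide as a block Ch25h was higher by 2.88 with an adjusted p of 0.360, and after normexp background correction 0 genes of the whole array were called. Ehhadh, the peroxisomal bifunctional enzyme, read 4.54, 4.84 and 5.23 on normal chow against 5.71, 5.78 and 5.44 on the high-Chol diet. The diets did not overlap for Ehhadh, and the difference was 0.78 (standard error 0.21, adjusted p = 0.123). Akr1c6 and Acaa1a, which differed by -0.42 and -0.37, did not overlap in the lower direction. On this list 2 genes (Ch25h and Ehhadh) were higher and 2 lower without overlap, against 11.9% and 14% of all genes with 6 values. Slc27a5, which activates bile acids to their CoA esters before Baat acts, read 7.40, 7.64 and 7.75 on normal chow against 7.40, 6.89 and 7.02 on the high-Chol diet. Its diets overlapped through high-Chol array 1, and the difference was -0.49 (standard error 0.19, adjusted p = 0.212). The other 12, Cyp46a1, Cyp2c70, Akr1c6, Akr1c14, Slc27a2, Hsd17b4, Scp2, Abcd3, Acot8, Acaa1a, Acaa1b and Por, differed by -0.75 (Por) to 0.57 (Cyp46a1), none past an unadjusted p of 0.05. With slide as a block Cyp46a1 turned to -0.48.

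Of 13 regulators of these enzymes 0 were called, against 2.92% of all genes. The mean was higher for 3 and lower for 10 (1 and 12 after scaling to the median, 4 and 9 after normexp correction), where 52.2% of all genes were lower. The median difference was -0.41 (-0.64 after scaling to the median and -0.18 after normexp correction). At an unadjusted p under 0.05, 1 of the 13 was higher and 4 were lower, against 12.3% and 8.83% of all genes. Nr1h4 (FXR) gave 4.50, 4.89 and 4.62 on normal chow against 3.77, 3.44 and 4.38 on the high-Chol diet, without overlap, so that the means differed by -0.81 (standard error 0.26, adjusted p = 0.162). Nr0b2 (SHP), which represses Cyp7a1, gave -0.25, -0.30 and 0.25 on normal chow against 1.20, 1.58 and 0.30 on the high-Chol diet. Its high-Chol arrays were all above normal chow, array 3 by little, with a difference of 1.13 (standard error 0.34, adjusted p = 0.147). Onecut1, a liver transcription factor, read 3.02, 2.93 and 2.82 on normal chow against 1.59, 1.21 and 2.54 on the high-Chol diet, so that the means differed by -1.14 (standard error 0.33, adjusted p = 0.131). Mafg, a repressor in the FXR pathway, differed by -0.64 (adjusted p = 0.143), also without overlap. For Nr1h4, Nr0b2 and Onecut1 the high-Chol array nearest to normal chow was array 3, the one on which Cyp7a1 was highest, whereas for Mafg it was array 1, at 2.33 against 2.29 on array 3, and for Hnf4a, also without overlap, array 2. Nr5a2 (LRH-1) was nearest to normal chow on array 1, at 2.32, 2.36 and 1.91 on normal chow against 2.30, 1.65 and 1.42 on the high-Chol diet. Its means differed by -0.41 (adjusted p = 0.386). High-Chol array 1 lay inside the normal chow range with both slide 2 arrays below it, as for 9.39% of the 16435 genes. These single arrays were compared after the values were seen, and links of regulators to enzymes were not tested. Hnf4a, Fgfr4, Klb, Nr1h3, Foxo1, Ppargc1a and Prox1 differed by -0.75 (Foxo1) to 0.08 (Fgfr4), with adjusted p of 0.257 or more.

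Dbp, a circadian activator of Cyp7a1, had the widest range of the regulators. Its signal was 6.57, 6.49 and 6.80 on normal chow against 0.86, 0.86 and 5.64 on the high-Chol diet, so that the means differed by -4.17 (standard error 1.21, adjusted p = 0.134). High-Chol arrays 1 and 2 were far below normal chow and array 3 was nearer to it. Cyp7a1 itself was below the normal chow range on high-Chol arrays 1 and 2 and not on array 3, a pattern picked after the values were seen and held by 5.1% of the 16435 genes. On the lists used here it was held by Por, Prox1, Krt7 and Lrat and by the clock genes Tef, Hlf, Per2 and Per3. Tef read 3.08, 3.59 and 3.69 on normal chow against 0.83, 1.00 and 3.12 on the high-Chol diet. Arntl, which peaks in the opposite phase to Dbp, read -1.12, -1.71 and -3.67 on normal chow against 1.19, 1.17 and -1.51 on the high-Chol diet. Of the 12 clock genes 0 were called, against 2.92% of all genes. The mean was lower for 10, but Per3 and Gm129 among them passed the filter on dim probes only through the normal chow arrays, where they are high, so the count supports nothing about the list. The summed signal of the 12 was 119 to 144 times the 75th percentile on normal chow and 14.8 to 72.1 times on the high-Chol diet. The sum adds probes of different brightness, and without Dbp it was 24.0 to 32.8 times on normal chow against 12.9 to 22.1 times on the high-Chol diet. Both sums include Per3 and Gm129, for which a lower value was built into the selection. The hour at which livers were taken is not given in the sources used here, and the part of the clock genes in the spread of Cyp7a1 was not tested.

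**Figure D3:**
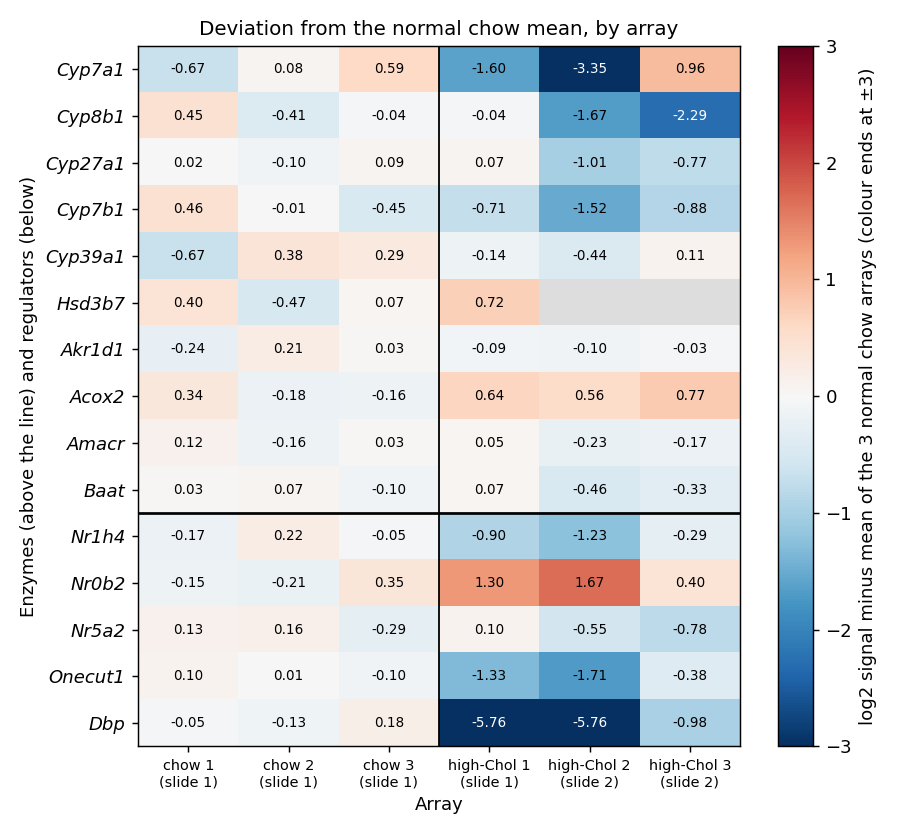
Log2 signal on each array minus the mean of the 3 normal chow arrays, for the 10 enzymes (above the line) and 5 regulators (below it); columns are arrays with their slide, the number in a cell is its value, blue is below and red above normal chow, and grey cells are spots marked as outliers. Cyp7a1 is at -1.60 and -3.35 on high-Chol arrays 1 and 2 and at 0.96 on array 3, with Dbp at -5.76, -5.76 and -0.98, whereas Cyp8b1 is at -0.04 on array 1 and at -1.67 and -2.29 on arrays 2 and 3.

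The genes whose pattern over the 6 arrays was most like that of Cyp7a1, ranked by Pearson's r among 14042 genes well above background on all arrays, were Akp2 (r = 0.994), Ryr1 (0.989), Wnt5b (0.988), Creb3 (0.988) and Lrrc16 (0.986). These are ranks over arrays that share diet and slide and carry no test. Akp2 read 1.11, 1.46 and 1.60 on normal chow against 0.95, 0.15 and 1.77 on the high-Chol diet, with the lowest value on high-Chol array 2 and the highest on array 3, as for Cyp7a1. Among the other bile acid synthesis genes r with Cyp7a1 ran from -0.36 for Acox2 to 0.64 for Cyp39a1. Hlf ranked 202, Tef 243 and Dbp 305, with r of 0.87, 0.86 and 0.84. Other clock genes were less like Cyp7a1 or opposite to it, with r of 0.82 for Per2, 0.61 for Nr1d2, 0.46 for Per1, 0.24 for Cry1, -0.01 for Nr1d1, -0.75 for Clock and -0.84 for Arntl.

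Hepatocytes, the cells that make bile acids, were marked by 6 genes of secreted proteins, all well above background on all 6 arrays. Their summed signal was 2409 to 2648 times the 75th percentile on normal chow and 1900 to 2063 times on the high-Chol diet. Of the 6, 5 were lower (3 of 6 after normexp correction or quantile normalization), against 52.2% of all genes, and 0 were called, against 2.92%. The 10 macrophage markers were all higher under each of the 4 scalings, 4 of them called (Cd68, Marco, Cd5l and Lyz2), against 2.69% of all genes called higher, though after normexp correction no gene of the array was called. The sum over the 8 with values on all arrays was 158 to 186 times the 75th percentile on normal chow and 393 to 528 times on the high-Chol diet. Like the hepatocyte sum, it adds probes of different brightness, and its brightest probes were those of Cd5l and Lyz2. Csf1r and Clec4f differed by 0.28 and 0.41 and were not called. With slide as a block 0 of the macrophage markers were called, but all 10 stayed higher, Cd68 by 1.66 (1.74 without the block), Marco by 1.99 (1.83), Cd5l by 1.13 (1.42) and Lyz2 by 1.32 (1.78). Markers of cholangiocytes (4 genes tested), endothelial cells (5) and stellate cells (4) held 0 called genes, against 2.92% of all genes. Their median differences were -0.32, 0.27 and 0.18. The endothelial median was 0.034 after scaling to the median, and the stellate median turned to -0.052 there and to -0.036 after normexp correction. Of 10 acute phase genes 1 was called, Lcn2, against 2.69% of all genes called higher. Lcn2 was higher by 4.03 (adjusted p = 0.0053). It was higher by 3.67 with slide as a block, where high-Chol array 1 alone stands against normal chow. Saa1, Saa2 and Saa3 differed by 2.43, 2.41 and 2.93 without overlap of the diets, with adjusted p of 0.0504 to 0.129. Among the 10 acute phase genes 4 were higher and 2 lower (Orm1 and Hp) without overlap, against 11.9% and 14% of all genes with 6 values. The median difference of the 10 was -0.05, or 0.24 after normexp correction, 0.19 after quantile normalization and -0.28 after scaling to the median. The part of cell makeup in the differences of the enzymes was not tested.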

How the data were processed

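The authors deposited the scanner output of 6 one-colour arrays, in which spot intensity had been background-subtracted by Agilent Feature Extraction (version 9.5 on slide 1 and 9.1 on slide 2 per the file headers, 9.1 per the labels), and a log2 table with a single value for each probe in each diet, normalized and filtered in GeneSpring by the authors with unstated settings. Diet differences in that table followed those used here with slope 1.00, offset -0.24 and r = 0.994 (23458 probes, which are not independent). Its centring is unknown, and the medians of its columns were -0.0019 and -0.273.

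The 75th percentile of the spots that were not controls was subtracted from the log2 signal, array by array. Outlier spots were dropped and saturated ones kept. Probes needed a signal well above background on every array of either diet, and a gene was represented by its brightest probe. Differences over 16727 genes came from limma 3.58.1 (lmFit, eBayes, 3 arrays per diet, R 4.3.3), with a threshold of 0.05 for the Benjamini-Hochberg adjusted p-value. The labels give the arrays as independent experiments and do not say whether each was 1 mouse, so p-values measure the spread between these arrays. Arrays are numbered here by slide and position, and these numbers do not pair the diets.

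The 10 members and all lists were chosen with earlier results of these data known. Named genes are the members, 15 other bile acid genes, 13 regulators, the 5 genes most correlated with Cyp7a1, and marker and clock genes whose values are set beside a result, some chosen after their values were seen. Gene names were taken from the array design, older ones being matched by RefSeq accession (90 of 92 list genes). In simulated data for this comparison, over 16435 genes, 31 of 94 genes changed by 2-fold and 82 of 106 changed by 4-fold were called, with 6 false calls. The simulated noise was independent between arrays, with the same SD in both diets and no slide effect. These counts therefore need not hold for the real arrays. Motifs were searched with Python 3.11.15. The number of arrays limits the precision. The alternatives were normexp background correction, scaling to the median, quantile normalization, no filter or a filter for all 6 arrays, the mean of a gene's probes, each probe by itself, slide as a block, the methods' t-test, the authors' values, each array left out in turn and outlier spots kept.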

Additional observations from a re-analysis of the deposited data

How the results depend on the processing

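No bile acid synthesis gene was called under any alternative except without high-Chol array 1, and leaving out single arrays gave 0 to 3 called genes. The 3 called without high-Chol array 1 were Cyp8b1, Cyp27a1 and Cyp7b1, in a fit where slide and diet cannot be told apart. Over all genes, calls higher and lower were 450 and 38, but 3158 and 785 without that array, 0 and 0 after normexp background correction (offset 50), where 1 member had an unadjusted p under 0.05, 11 and 0 with slide as a block, 26 and 0 with no filter on dim probes and 42 and 0 without normal chow array 2. Higher and lower genes over 1.5-fold were 2580 and 977, but 623 and 1823 after normexp and 1756 and 2772 after scaling to the median, which moved the median of all genes to -0.11 and -0.26.

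Directions turned for 5 genes, Amacr, Baat, Cyp39a1, Akr1d1 and Cyp27a1. After normexp correction Amacr was at 0.18, Baat at 0.086 and Cyp39a1 at 0.047. After quantile normalization Amacr was at 0.060. With slide as a block Amacr was at 0.052, Baat at 0.068 and Cyp27a1 at 0.073. The second probe for Baat gave 0.11. With single arrays left out, Akr1d1 ranged from -0.20 (without normal chow array 1) to 0.032 (without normal chow array 2) and Cyp39a1 from -0.49 to 0.033, without the same arrays. The sign did not turn for Cyp7a1, Cyp8b1, Cyp7b1, Hsd3b7 and Acox2 under any alternative that gave a value, but Cyp8b1 was close to 0 with slide as a block, at -0.043, or 0.019 relative to the median of all genes in that fit. In the authors' deposited values, where the diet difference lies at a fitted offset of -0.24 from that used here, Hsd3b7 differed by 0.06 (0.30 here with outlier spots kept), Akr1d1 by -0.32 and Amacr by -0.36 (-0.31 and -0.35 here after scaling to the median). The cause of the turned directions was not tested. Keeping spots marked as outliers was chosen after seeing the data, and without high-Chol array 1 Hsd3b7 had no high-Chol value. No paired analysis was possible because the labels number the replicates of each diet 1 to 3 without saying which array bears which number.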
